A study of Mus musculus with 24 samples.

Results

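Microvessels isolated from mouse brain were examined for 10 genes of the arterial, venous and Notch programmes of endothelium, chosen by their symbols in a table of 17270 genes. These were the arterial genes Gja4, Gja5, Bmx and Efnb2, the Notch ligands Dll4 and Jag1, the Notch receptors Notch1 and Notch4, the Notch target Hey1 and the venous gene Nr2f2. All mice were male C57BL/6J aged 10 to 12 weeks that received either 60 minutes of transient middle cerebral artery occlusion (tMCAO, called stroke here) or sham surgery, in which the filament was withdrawn at once. Ipsilateral and contralateral hemispheres were taken 24 h or 7 days after onset, which gave 8 groups of 3 libraries and 24 libraries in all. Each library was a pool of 3 whole hemispheres, so that infarcted, border and intact tissue were measured together. The methods state that some libraries were set aside as outliers, and those were not analysed here.

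In Notch signalling a ligand on 1 cell binds a receptor on its neighbour, and cleavage then frees the intracellular part of the receptor. That part joins the DNA-binding protein RBPJ and switches on repressors of the Hes and Hey families. In growing and mature vessels Dll4 and the endothelial receptors are known for arterial identity, Ephrin-B2 and the connexins of Gja4 and Gja5 mark arterial endothelium, and the nuclear receptor Nr2f2 is known to hold back Notch in veins.

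Values are normalized counts, the reads of a gene scaled between libraries by DESeq2 size factors and rounded by the authors. The 24 libraries summed to between 15924780 and 18787932 normalized counts, and libraries of 1 group correlated with r between 0.967 and 0.988 on the log2 scale. The 10 endothelial markers (Pecam1, Cdh5, Cldn5 and others) were above 0 in all libraries and summed to between 181604 and 260824. Smooth muscle markers (32759 to 104566), pericyte markers (57240 to 131104) and oligodendrocyte markers (19868 to 105309) were also present, so that the preparations were vessel fragments with their mural cells and some parenchyma. In such bulk samples fewer cells of a type and less RNA per cell cannot be told apart.

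All 10 genes were well measured, and each had a mean above that of at least 76.2% of the genes in the table. Per kb of the longest annotated transcript, which allows levels of different genes to be compared, the gap junction gene Gja4 was highest with a mean of 1562 normalized counts per kb over the 24 libraries. It was followed on the same scale by Notch4 (1074), Bmx (910), Dll4 (888), Hey1 (806), Jag1 (793), Notch1 (635), Nr2f2 (314), Efnb2 (308) and Gja5 (251). The order was not the same without length, where Notch4 was first with a mean of 7081.5 normalized counts and Gja4 dropped to place 6. In build mm10 the files place Gja4 (ENSMUSG00000050234) at chr4:127311421-127314039, Gja5 (ENSMUSG00000057123) at chr3:96904693-97077416, Bmx (ENSMUSG00000031377) at chrX:164192842-164258193 and Efnb2 (ENSMUSG00000001300) at chr8:8617434-8661242. The Notch genes lie at Dll4 (ENSMUSG00000027314) at chr2:119325784-119335962, Jag1 (ENSMUSG00000027276) at chr2:137081456-137116644, Notch1 (ENSMUSG00000026923) at chr2:26457903-26503822, Notch4 (ENSMUSG00000015468) at chr17:34564268-34588503 and Hey1 (ENSMUSG00000040289) at chr3:8663359-8667256. The venous gene is Nr2f2 (ENSMUSG00000030551) at chr7:70351944-70366735. All are protein-coding. Exons at the start of Gja5 overlap exons of Gpr89 on the opposite strand, and Dll4, Notch1 and Nr2f2 overlap antisense transcripts with means of at most 73.4 normalized counts. The kit kept strand, but the strand setting of the counting is not given in the sources used here.

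The promoters of 3 members are shown because the results turn on these genes. The stroke effect on Gja5 and Dll4 differed between the time points by the interaction test, a call that for Dll4 was lost in 10 of 22 alternatives, and Bmx ran opposite to Dll4 from library to library. Each sequence is the 250 bases before the RefSeq start in GRCm38.p6, written 5′ to 3′ on the strand of the gene. They lie at chr3:97032152-97032401 (plus strand, Gja5), chrX:164258194-164258443 (minus strand, Bmx) and chr2:119325534-119325783 (plus strand, Dll4). Capitals mark the RBPJ core TGGGAA and the SOX core ATTGT, each searched on both strands (TTCCCA and ACAAT on the other strand) together with the E-box CACGTG.
Gja5: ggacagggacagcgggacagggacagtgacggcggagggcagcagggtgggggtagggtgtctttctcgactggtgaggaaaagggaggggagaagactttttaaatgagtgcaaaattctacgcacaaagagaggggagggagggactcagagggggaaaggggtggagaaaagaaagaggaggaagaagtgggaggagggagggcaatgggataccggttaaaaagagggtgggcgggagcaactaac
Bmx: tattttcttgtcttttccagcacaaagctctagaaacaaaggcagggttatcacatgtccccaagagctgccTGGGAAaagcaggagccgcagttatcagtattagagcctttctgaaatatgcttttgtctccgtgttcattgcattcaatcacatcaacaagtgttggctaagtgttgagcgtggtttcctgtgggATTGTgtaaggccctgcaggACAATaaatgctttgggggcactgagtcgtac
Dll4: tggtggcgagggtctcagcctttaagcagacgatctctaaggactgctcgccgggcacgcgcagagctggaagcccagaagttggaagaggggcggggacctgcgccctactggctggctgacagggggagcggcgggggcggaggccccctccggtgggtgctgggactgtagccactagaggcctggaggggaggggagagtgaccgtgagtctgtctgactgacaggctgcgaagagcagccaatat
The windows of Gja5 and Dll4 held none of these letters, and that of Bmx held 1 RBPJ core and 2 SOX cores. Among all 32851 promoter windows of this length in the table, 21.6% held the RBPJ core, 6.0% the E-box and 27.7% the SOX core. Of the 9 members in the table, Gja4, Jag1 and Notch4 held 1 SOX core each, Efnb2, Notch1 and Nr2f2 held no match, and none of the 9 held the E-box. Hey1 had no entry. For Gja5 the RefSeq start lies 127709 bases downstream of the gene start given in the files.

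**Figure D1:**
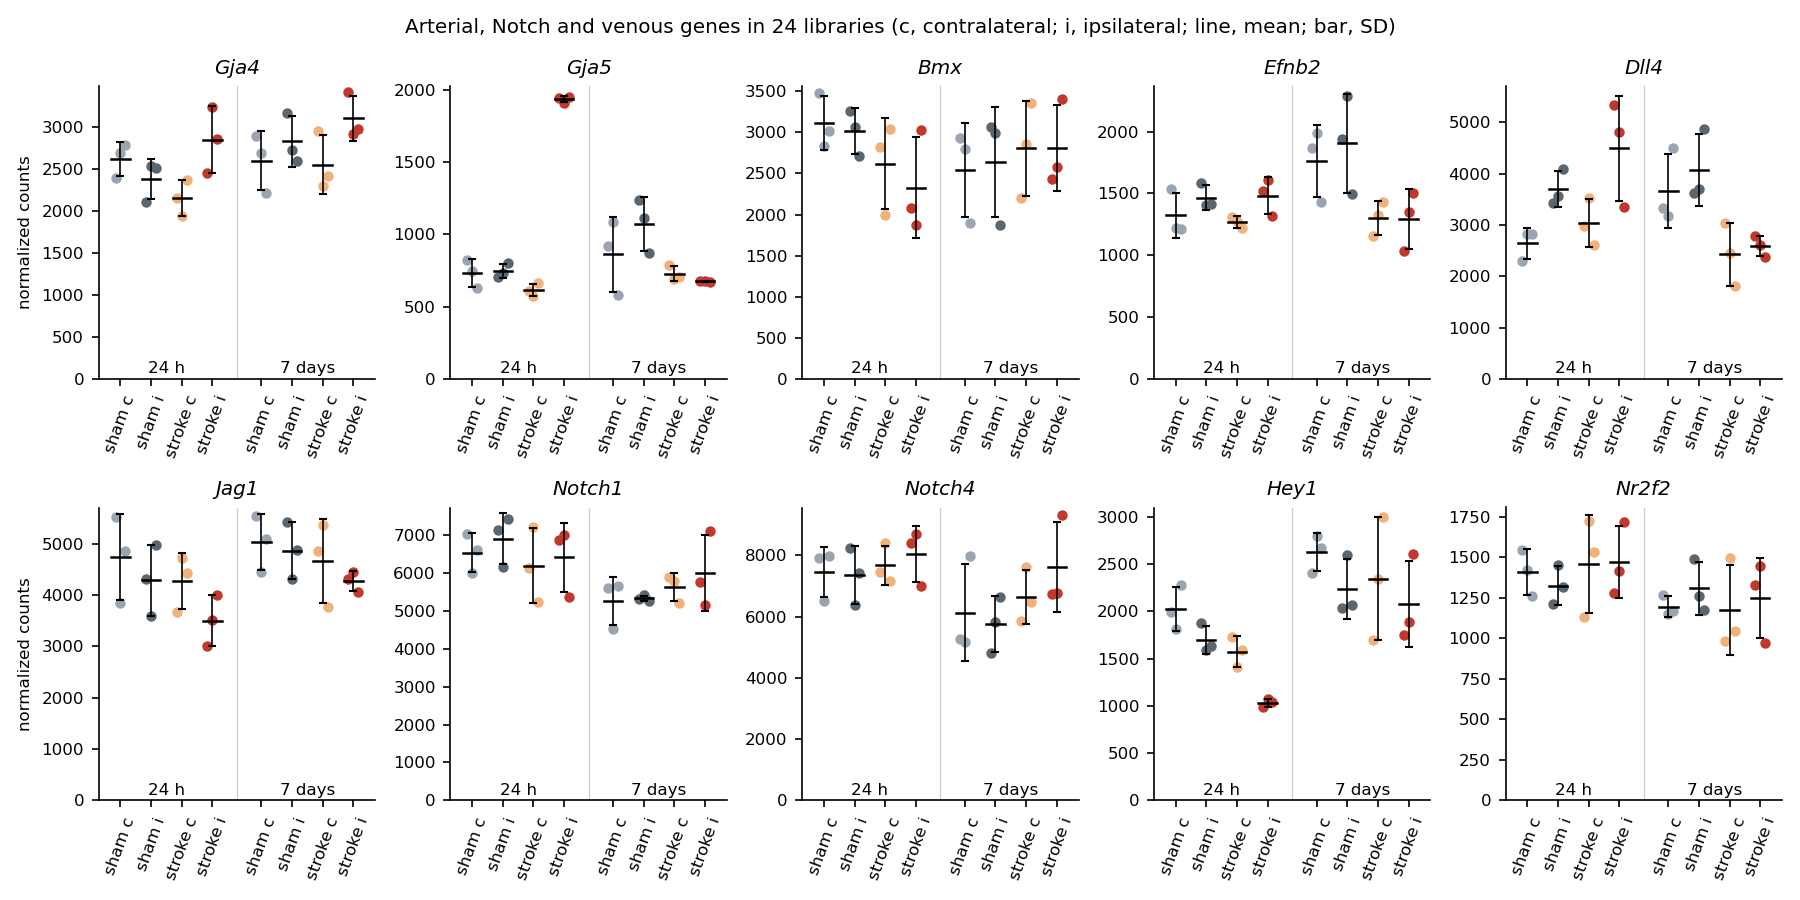
Normalized counts of the 10 genes (vertical axes, from 0) in the 8 groups (horizontal axes), with 1 point per library, a line at the mean and a bar for the SD of 3 libraries. The 3 stroke ipsilateral libraries at 24 h lie between 1911 and 1953 for Gja5, above the other 21 libraries, and between 986 and 1068 for Hey1, below the other 21.

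Genes were called regulated when limma gave a Benjamini-Hochberg adjusted p below 0.05 over 15982 genes and a log2 fold change beyond 0.585 in either direction. In the ipsilateral hemisphere at 24 h, stroke against sham, 1 of the 10 genes was higher (Gja5) and 1 lower (Hey1), beside 10.0% of all genes tested higher and 8.23% lower. The ranges of stroke and sham libraries did not overlap for 2 of the 10, against 49.0% of all genes tested. The median log2 fold change of the 10 was 0.07 and that of all genes -0.02. At 7 days no member was higher and 2 were lower (Gja5 and Dll4), beside 3.27% higher and 9.95% lower among all genes. Ranges did not overlap at 7 days for 3 of the 10 (Gja5, Dll4 and Notch4), against 30.0%. The median was -0.10 for the 10 and 0.02 for all genes. At 24 h the share of members called was near that of all genes. Gja5 alone was called in both comparisons, and with opposite sign.

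**Figure D2:**
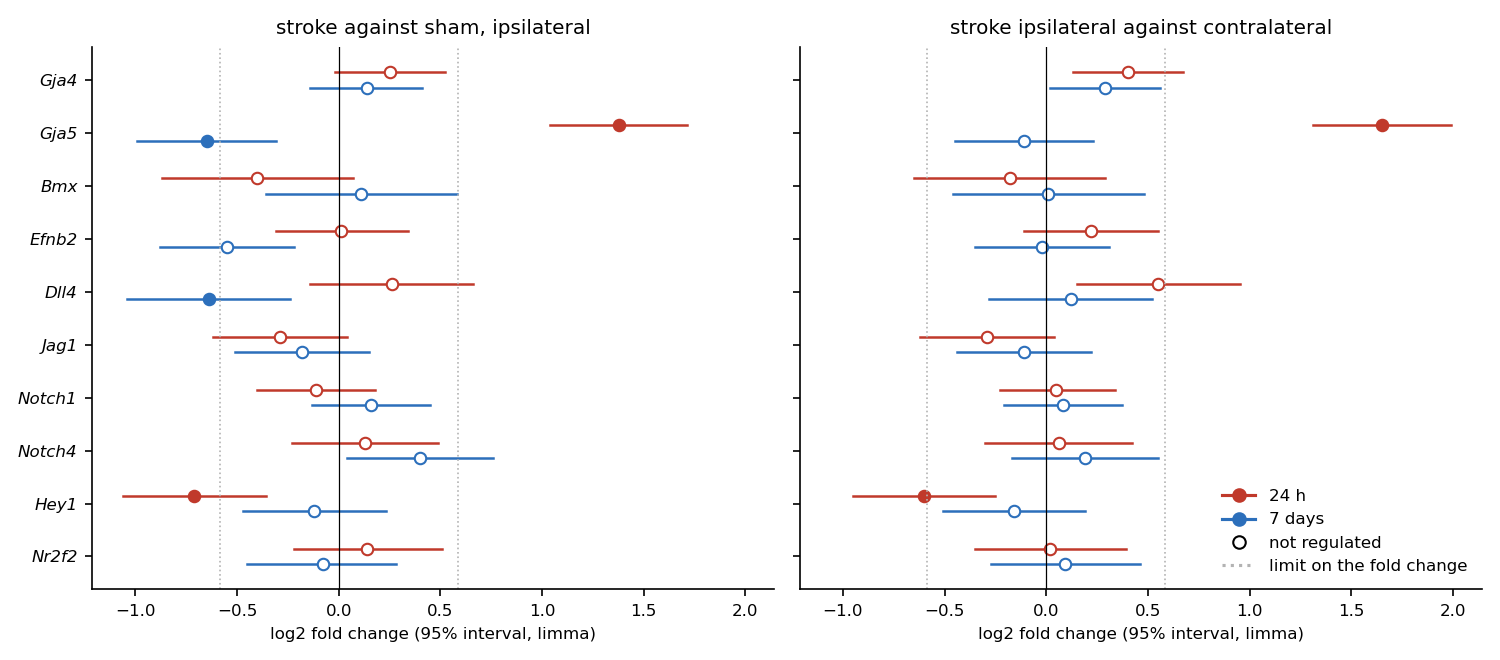
Log2 fold changes of the 10 genes with 95% intervals from limma (horizontal axis), stroke against sham in the ipsilateral hemisphere (left) and stroke ipsilateral against contralateral (right), at 24 h in red and 7 days in blue. Filled points are regulated and dotted lines are the limit of 0.585. Gja5 stands at 1.38 and 1.65 at 24 h and at -0.65 and -0.11 at 7 days.

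Gja5 encodes a connexin that couples arterial endothelial cells through gap junctions. The sham ipsilateral libraries at 24 h held 706, 731 and 803 normalized counts and the stroke ipsilateral libraries 1944, 1911 and 1953. The groups lay far apart, and the stroke libraries hardly differed among themselves (1936.0 ± 22.1, SD, n = 3). This was a log2 fold change of 1.38 (SE 0.16, 95% interval 1.04 to 1.71), a 2.59-fold higher level with an adjusted p of 6.62e-06 from limma. Against the contralateral hemisphere of the same surgery, at 608, 576 and 663, it was 1.65 (SE 0.16, adjusted p = 1.68e-06). Gpr89, whose exons overlap those of Gja5, had a log2 fold change of -0.01 (SE 0.10) between stroke and sham at 24 h. Over 16 alternatives the fold change of Gja5 at 24 h stayed between 1.30 and 1.47 and the call held in each.

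At 7 days the order of Gja5 was turned around. The stroke ipsilateral libraries held 676, 680 and 672 normalized counts and the sham ipsilateral libraries 1237, 1111 and 873. The groups did not overlap, with a log2 fold change of -0.65 (SE 0.16, limma adjusted p = 0.00814). Without sham ipsilateral replicate 1 it was -0.54 (adjusted p = 0.0497), inside the limit on the fold change, and it was -0.55 after correction for gene length and GC content. The sham libraries were the ones that stood high. The stroke contralateral libraries at 7 days held 787, 695 and 706, and those of the ipsilateral side differed from them by -0.11 (SE 0.16, adjusted p = 0.755). Sham contralateral libraries at 7 days spread from 580 to 1089. In the order of group means the stroke ipsilateral group at 24 h was followed by the sham ipsilateral (1073.7) and sham contralateral (862.7) groups at 7 days. Below them came the sham groups at 24 h (746.7 ipsilateral and 734.7 contralateral), the stroke contralateral (729.3) and ipsilateral (676.0) groups at 7 days and the stroke contralateral group at 24 h (615.7). Neighbours in this order overlapped in their libraries, except for the first and for the stroke ipsilateral group at 7 days, which overlapped with neither of its neighbours.

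Gja4 encodes the other arterial connexin of the list and was not regulated in any of the 11 comparisons. The sham ipsilateral libraries at 24 h held 2105, 2526 and 2512 normalized counts and the stroke ipsilateral libraries 2446, 3237 and 2849, and these ranges overlapped. With a log2 fold change of 0.25 (SE 0.13, limma adjusted p = 0.147), Gja4 did not pass the test. Against the contralateral libraries (2151, 1936 and 2365), all 3 ipsilateral libraries were higher, by 0.40 (SE 0.13, adjusted p = 0.0302), which is under the limit on the fold change. The mean was highest in the stroke ipsilateral group at 7 days (3098.3 ± 270.9, SD, n = 3) and lowest in the stroke contralateral group at 24 h (2150.7 ± 214.5, SD, n = 3).

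Efnb2 encodes Ephrin-B2, the arterial membrane ligand of the venous receptor EphB4. At 24 h its level was 1482.7 ± 148.6 normalized counts after stroke and 1465.3 ± 100.2 after sham surgery (SD, n = 3 each, ipsilateral), with a log2 fold change of 0.01 (SE 0.16). At 7 days the stroke ipsilateral libraries held 1031, 1352 and 1503 and the sham ipsilateral libraries 1937, 2288 and 1492. Of the sham libraries only replicate 3 overlapped with the stroke libraries. The log2 fold change was -0.55 (SE 0.16, limma adjusted p = 0.0192), just inside the limit of 0.585, and without sham ipsilateral replicate 3 it was -0.72 (adjusted p = 0.00526) and past it. It also passed without stroke ipsilateral replicate 2 (-0.59, adjusted p = 0.0307) or 3 (-0.67, adjusted p = 0.0109) and with endothelial centring (-0.71, adjusted p = 0.00267). The contralateral hemispheres stood in the same order, with 1156, 1322 and 1432 after stroke and 1866, 1990 and 1434 after sham surgery. Their log2 fold change was -0.43 (SE 0.16, unadjusted p = 0.0135, adjusted p = 0.379).

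Bmx encodes a Tec family tyrosine kinase enriched in arterial endothelium. Its libraries ranged from 1873 to 3475 normalized counts, and no comparison called it. At 24 h the stroke ipsilateral libraries held 2079, 1877 and 3027 and the sham ipsilateral libraries 3262, 3062 and 2713, a log2 fold change of -0.40 (SE 0.23, limma adjusted p = 0.185). Stroke replicate 3 lay within the sham range. At 7 days the stroke libraries ranged from 2437 to 3408 and the sham libraries from 1873 to 3060, and the log2 fold change was 0.11 (SE 0.23). Group membership accounted for 23.5% of the variance of Bmx on the log2 scale, the lowest share of the 10 genes, compared with 89.3% for Gja5. With 8 groups of 3 libraries such a share is well above 0 even without any group difference, so that the low value of Bmx shows none.

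Dll4 encodes the Notch ligand of arterial and tip cells. At 24 h the stroke ipsilateral libraries held 5333, 4803 and 3352 normalized counts, the sham ipsilateral libraries 3423, 3568 and 4090 and the stroke contralateral libraries 2982, 3526 and 2609. Replicates 1 and 2 of the stroke ipsilateral group were above the other 7 of these 9 libraries, whereas replicate 3 lay below all sham libraries. The log2 fold change was 0.26 against sham (SE 0.19, limma adjusted p = 0.311) and 0.55 against the contralateral side (SE 0.19, adjusted p = 0.0413), under the limit on the fold change. Without stroke ipsilateral replicate 3 the latter was 0.75 (adjusted p = 0.00917), and without stroke contralateral replicate 2 it was 0.66 (adjusted p = 0.0322), both past the limit.

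At 7 days Dll4 fell after stroke in the ipsilateral hemisphere. The stroke ipsilateral libraries held 2783, 2607 and 2381 normalized counts and the sham ipsilateral libraries 3613, 3707 and 4875, without overlap. The log2 fold change was -0.64 (SE 0.19, limma adjusted p = 0.0246). Without sham ipsilateral replicate 3 it was -0.50 (adjusted p = 0.116), without stroke ipsilateral replicate 2 it was -0.65 (adjusted p = 0.0516) and without stroke ipsilateral replicate 3 it was -0.58 (adjusted p = 0.0828), so that the call rests on single libraries. It was -0.47 after correction for gene length and GC content. On the contralateral side the stroke libraries held 3030, 2452 and 1806 and the sham libraries 3327, 3184 and 4497, also without overlap, with a log2 fold change of -0.61 (SE 0.19, unadjusted p = 0.00459, adjusted p = 0.335). The 2 hemispheres of stroke mice differed at 7 days by 0.12 (SE 0.19, adjusted p = 0.765). In the order of the 8 group means, from 4496.0 in the stroke ipsilateral group at 24 h to 2429.3 in the stroke contralateral group at 7 days, each neighbouring pair overlapped in its libraries.

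Jag1 encodes a Notch ligand of endothelium and smooth muscle and was not regulated in any comparison. At 24 h the stroke ipsilateral libraries held 3004, 3508 and 3992 normalized counts and the sham ipsilateral libraries 4306, 3587 and 4974, with a log2 fold change of -0.29 (SE 0.16, limma adjusted p = 0.171). The ranges overlapped through sham replicate 2. This stroke group had the lowest mean of the 8 (3501.3 ± 494.0, SD, n = 3) and the sham contralateral group at 7 days the highest (5025.0 ± 546.6, SD, n = 3). At 7 days the log2 fold change of stroke against sham was -0.18 (SE 0.16, adjusted p = 0.491).

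The receptors Notch1 and Notch4 were not regulated in any comparison. Group means of Notch1 ran from 5255.3 ± 634.9 (sham contralateral, 7 days) to 6892.7 ± 671.2 normalized counts (sham ipsilateral, 24 h, SD, n = 3 each), and those of Notch4 from 5757.7 ± 907.5 (sham ipsilateral, 7 days) to 8036.0 ± 913.2 (stroke ipsilateral, 24 h). Stroke against sham gave Notch1 log2 fold changes of -0.11 at 24 h and 0.16 at 7 days (SE 0.14 each). Notch4 had 0.13 (SE 0.17) at 24 h. At 7 days the Notch4 libraries held 6743, 6783 and 9317 after stroke and 4817, 5828 and 6628 after sham surgery on the ipsilateral side. These ranges did not overlap, but the log2 fold change of 0.40 (SE 0.17) had a limma adjusted p of 0.128. With correction for gene length and GC content it was 0.82 (adjusted p = 0.00437) and called.

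Hey1 encodes a transcriptional repressor switched on by Notch. At 24 h the stroke ipsilateral libraries held 986, 1068 and 1043 normalized counts and the sham ipsilateral libraries 1871, 1588 and 1631. All stroke libraries lay below all sham libraries. The log2 fold change was -0.71 (SE 0.17, 95% interval -1.06 to -0.36, limma adjusted p = 0.0037), and the call held in 16 of 16 alternatives with values from -0.86 to -0.62. The contralateral stroke libraries, at 1726, 1407 and 1589, were higher than the ipsilateral ones, with an ipsilateral log2 fold change of -0.60 (SE 0.17, adjusted p = 0.0125). Without stroke contralateral replicate 1 it was -0.53 (adjusted p = 0.0539) and without stroke ipsilateral replicate 1 it was -0.57 (adjusted p = 0.0492), so that this second call was lost. At 7 days the stroke ipsilateral libraries held 1751, 1883 and 2602 and the sham ipsilateral libraries 2034, 2597 and 2070, which overlapped, with -0.12 (SE 0.17, adjusted p = 0.706). From the highest group, sham contralateral at 7 days (2628.0), down to the lowest, stroke ipsilateral at 24 h (1032.3), only the last neighbouring pair had libraries that did not overlap. The 4 groups at 7 days held the 4 highest means.

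Nr2f2, the venous gene, was not regulated in any comparison. The sham ipsilateral libraries at 24 h held 1210, 1451 and 1317 normalized counts and the stroke ipsilateral libraries 1279, 1417 and 1716. The log2 fold change was 0.14 (SE 0.18, 95% interval -0.22 to 0.51, limma adjusted p = 0.564) at 24 h and -0.08 (SE 0.18, adjusted p = 0.807) at 7 days. Its 8 group means lay between 1175.7 and 1470.7, and the libraries of each group overlapped with those of its neighbours in the order.

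Against sham on the ipsilateral side other cell types moved with the stroke groups, and their part in these results was not tested. Of all genes tested 10.0% were higher and 8.23% lower at 24 h, and 3.27% higher and 9.95% lower at 7 days. At 24 h the 6 markers of neutrophils and monocytes, S100a8 and Ccr2 among them, were all regulated and higher, and their summed level was 2997 to 5721 normalized counts in the stroke ipsilateral libraries and 311 to 1129 in the sham ipsilateral ones. Lower at 24 h were 3 of 6 neuronal markers, with sums of 1575 to 2200 after stroke and 4030 to 4211 after sham surgery. So were 3 of 6 astrocyte markers (9978 to 15398 and 14706 to 22424) and 2 of 6 oligodendrocyte markers (20666 to 50014 and 35392 to 67948). Of 6 markers of microglia and macrophages 2 were higher, but only 3 had a positive sign (median 0.07). Their sums overlapped, with 2349 to 3605 after stroke and 1962 to 4064 after sham surgery. Against the contralateral side 2 of these 6 were higher at 24 h and 3 at 7 days. Of 8 pericyte markers 3 were lower, with sums of 57240 to 82136 and 90147 to 114807. Of 7 smooth muscle markers 1 was lower and only 1 had a positive sign (median -0.52). Their sums were 32759 to 78609 after stroke and 70147 to 74768 after sham surgery. Endothelial markers were regulated in 0 of 10 at 24 h, with sums of 181604 to 238469 after stroke and 193795 to 227752 after sham surgery. At 7 days 6 of 6 neuronal markers were lower after stroke (415 to 718 against 3334 to 5738), 3 of 5 choroid plexus markers were lower (649 to 3112 against 15763 to 28947), and 1 of 10 endothelial markers, Egfl7, was higher. All 4 tested proliferation markers were higher at that time (273 to 336 against 54 to 63). Lower were 2 of 5 fibroblast markers (5863 to 6242 against 8900 to 14675) and 2 of 6 astrocyte markers (8734 to 11651 against 13404 to 28990). Against the contralateral side of stroke mice 0 of 6 oligodendrocyte markers were called at 24 h. At 7 days 0 of 5 choroid plexus and 0 of 5 fibroblast markers were called against it. Lower against that side were 2 of 6 neuronal markers at 24 h and 6 of 6 at 7 days. So were 3 of 8 pericyte markers at 24 h and 2 of 6 astrocyte markers at either time. Higher were 3 of 6 neutrophil and monocyte markers at 24 h and 4 of 4 proliferation markers at 7 days. Apart from proliferation, where 1 marker was at 0 in some sham libraries, no marker was at 0 in any library. With each library centred on its endothelial markers, the calls against sham of Gja5 and Hey1 at 24 h and of Gja5 and Dll4 at 7 days were kept. The call of Hey1 against the contralateral side at 24 h was lost (-0.57).

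Against the contralateral hemisphere of stroke mice at 24 h, 1 of the 10 genes was higher (Gja5) and 1 lower (Hey1), beside 8.52% of all genes tested higher and 5.14% lower. Libraries of the 2 hemispheres did not overlap for 4 of the 10 (Gja4, Gja5, Efnb2 and Hey1), against 40.8%. None of the 10 was regulated at 7 days between the hemispheres, beside 13.0% of all genes, where only Gja4 had an unadjusted p under 0.05 in limma. Its difference was 0.29 (SE 0.13, adjusted p = 0.156). From 24 h to 7 days in the stroke ipsilateral hemisphere Hey1 rose by 0.99 on the log2 scale (SE 0.17, adjusted p = 0.00049), beside 3.72% of genes higher. Gja5 decreased by 1.52 (SE 0.16, adjusted p = 6.54e-06) and Dll4 decreased by 0.77 (SE 0.19, adjusted p = 0.00821), beside 8.44% of genes lower. Without stroke ipsilateral replicate 1 at 24 h the value of Dll4 was -0.63 (adjusted p = 0.0589). The time points did not overlap for 4 of the 10 (Gja5, Dll4, Jag1 and Hey1), against 34.2%. These comparisons share the stroke ipsilateral libraries with those against sham.

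The control comparisons called none of the 10. Sham ipsilateral against contralateral gave 0 regulated genes of any kind (0%) by limma at 24 h, where 367 genes and 1 member had an unadjusted p under 0.05. It also gave 0 (0%) at 7 days, where these numbers were 359 and 1. The member was Dll4 at 24 h (0.48, SE 0.19, unadjusted p = 0.0196, all ipsilateral above all contralateral libraries) and Gja5 at 7 days (0.35, SE 0.16, unadjusted p = 0.0444). In the contralateral hemispheres stroke against sham called 0 genes (0%) at 24 h and 0.0313% of genes at 7 days. Unadjusted p fell under 0.05 for 405 genes at 24 h, with Gja4 (-0.28) and Hey1 (-0.36) among the members, and for 1639 at 7 days, with Dll4 and Efnb2. From 24 h to 7 days in the sham ipsilateral hemisphere 0.476% of genes were regulated, and the time points did not overlap for 4 of the 10 against 22.0% of all genes. Of these, Gja5 (0.51, SE 0.16, adjusted p = 0.16), Hey1 (0.39, SE 0.17, adjusted p = 0.291) and Gja4 (0.25, SE 0.13, adjusted p = 0.408) stood higher at 7 days and Notch1 lower (-0.37, SE 0.14, adjusted p = 0.218).

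Whether the ipsilateral stroke effect differed between the time points was tested with an interaction term, the log2 fold change at 7 days minus that at 24 h. It was negative and regulated for 2 of the 10 genes, beside 5.68% of all genes tested, and positive for none, beside 2.43%. For Gja5 the difference was -2.03 (SE 0.23, 95% interval -2.51 to -1.55, limma adjusted p = 3.71e-05), and it was called in 22 of 22 alternatives. For Dll4 it was -0.90 (SE 0.27, adjusted p = 0.0386). That call was lost in 10 of 22 alternatives. It was lost without sham ipsilateral replicate 1 (adjusted p = 0.0951) or 2 (0.067) or stroke ipsilateral replicate 1 (0.113) or 2 (0.0874) at 24 h. At 7 days it was lost without sham ipsilateral replicate 3 (adjusted p = 0.101) or stroke ipsilateral replicate 2 (0.0622) or 3 (0.0865), while the value stayed between -1.10 and -0.75 in all 22. Hey1 had a difference of 0.60 (SE 0.24, adjusted p = 0.115) and Efnb2 one of -0.57 (SE 0.22, adjusted p = 0.111), so that a change of the stroke effect on Hey1 was not shown. Without sham ipsilateral replicate 3 at 7 days the value of Efnb2 was -0.73 (adjusted p = 0.0433).

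The 10 genes did not move as 1 set from library to library. Of the 45 pairs 22 had a positive Pearson r of log2 levels over the 24 libraries, with a median of -0.02 and a range from -0.69 to 0.73. After group means were removed, the strongest relation was negative. Bmx and Dll4 had r = -0.92, and only 5 of 15981 genes had a lower r with Dll4. The receptors Notch1 and Notch4 went together (r = 0.65), while Notch4 ran opposite to Gja5 (r = -0.70) and Gja4 (r = -0.66). All points share library, depth and tissue makeup, so that these values are descriptions. Bmx followed the mean of 7 smooth muscle markers within groups (r = 0.78) and ran against that of the neutrophil and monocyte markers (r = -0.82), and Dll4 did the reverse (r = -0.70 and 0.76). In the stroke ipsilateral group at 24 h replicate 3 combined the highest Bmx (3027 normalized counts) with the lowest Dll4 (3352), and smooth muscle sums there spanned 32759 to 78609. With the smooth muscle level as a covariate, an alternative added after the data were seen, the calls against sham were unchanged. These were Gja5 and Hey1 at 24 h and Gja5 and Dll4 at 7 days. Against the contralateral side at 24 h Hey1 then had -0.57 and was no longer called. The neutrophil and monocyte level was not used as a covariate, and the part of either cell type was not tested.

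**Figure D3:**
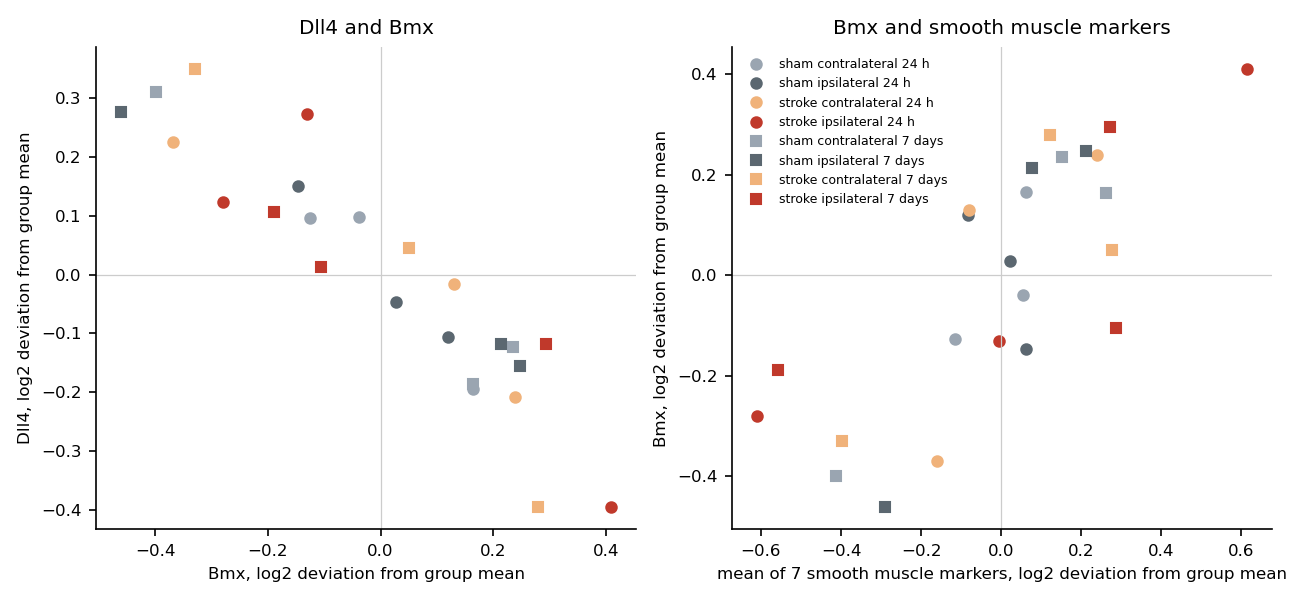
Log2 deviations of 24 libraries from their group means, Dll4 against Bmx (left, r = -0.92) and Bmx against the mean of 7 smooth muscle markers (right, r = 0.78). Colours are surgery and hemisphere, circles 24 h and squares 7 days. Libraries with high Bmx had low Dll4 at both time points.

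The genes whose log2 levels were most like those of each member over the 24 libraries were not other members. Gja5 was closest to Aldh18a1 (r = 0.92), Srm and Atic (0.90 each). Hey1 was closest to Clstn1 (0.93), Spock2 (0.92) and Aplp2 (0.91). For Bmx these were Gpr20 (0.91), Lmod1, a marker of the smooth muscle list (0.90), and Idh2 (0.90), and for Efnb2 the arterial genes Unc5b and Vegfc (0.81 each) and Insig1 (0.80). Dll4 lay nearest to Surf6 (0.85), Hbegf (0.82) and Rcl1 (0.81), Jag1 to Amd1 and Synj2 (0.85 each) and Abr (0.82), and Notch1 to Usp7 (0.85), Ahctf1 (0.83) and Ubr4 (0.82). Notch4 was nearest to Rapgef3 (0.88), Rnf215 (0.85) and Per1 (0.84), Gja4 to Mrps11 (0.78), Nmral1 (0.75) and Snapc2 (0.74), and Nr2f2 to Thap2 (0.82), Srek1 (0.80) and Ttc9c (0.77). Group differences held 89.3% of the variance of Gja5 and 82.9% of that of Hey1, so that these values include the group differences.

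The rest of the Notch pathway was taken from fixed lists. Of the other ligands and receptors, 4 of 5 could be tested. Dll1, a ligand of the Delta family, was regulated at 24 h with 470, 640 and 364 normalized counts after stroke and 150, 128 and 123 after sham surgery. These groups lay far apart, with a log2 fold change of 1.84 (SE 0.26, limma adjusted p = 3.74e-05). Dll1 did not pass the test against sham at 7 days, where its libraries held 236, 312 and 204 after stroke and 181, 175 and 107 after sham surgery, without overlap (0.71, SE 0.26, adjusted p = 0.0625). Against the contralateral side it was higher at 24 h (1.5, SE 0.26, adjusted p = 0.000328) and at 7 days (0.81, SE 0.26, adjusted p = 0.0326). Of 9 genes of the processing enzymes (Adam10, Adam17, Furin and gamma-secretase) and 11 of the nuclear complex (Rbpj, the Maml coactivators and others) none was regulated against sham at 24 h or 7 days. Against the contralateral side Aph1b, a subunit of gamma-secretase, was lower at 24 h (-0.64, SE 0.16, adjusted p = 0.00655). The medians against sham at 24 h were 0.14 and -0.22, beside -0.02 for all genes. Of 16 modifiers 2 were lower against sham at both times, beside 8.23% of all genes lower at 24 h and 9.95% at 7 days, the ubiquitin ligases Neurl1a (-0.77 at 24 h and -1.85 at 7 days) and Dtx1 (-1.19 and -1.40). Both are also known from neurons, of whose 6 markers 3 were lower at 24 h and 6 at 7 days, and the part of that was not tested. Between the hemispheres of stroke mice 0 of the 16 modifiers were called at 24 h and 2 were lower at 7 days. Beside this, 5.14% of all genes were lower at 24 h and 13.0% regulated in either direction at 7 days.

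Of 5 further Notch targets, 1 was lower against sham at 24 h and 2 at 7 days, beside 8.23% and 9.95% of all genes, and none was higher. Against the contralateral side Nrarp, a Notch feedback inhibitor, was higher at 24 h (0.70, SE 0.14, limma adjusted p = 0.00125). Hes5, a repressor known from neural progenitors, fell by 1.98 at 24 h (SE 0.35, limma adjusted p = 0.000344), with 9, 7 and 8 normalized counts after stroke and 42, 26 and 37 after sham surgery, all low levels. It fell by 1.83 at 7 days (SE 0.35, adjusted p = 0.000943). Heyl, a target in mural cells, had libraries of 823, 938 and 1087 after stroke and 2063, 1706 and 1376 after sham surgery at 7 days, without overlap, and fell by 0.84 (SE 0.25, adjusted p = 0.0253). As with Dll4, its stroke contralateral libraries at 7 days (834, 1036 and 1186) were close to the ipsilateral ones. The medians of the 5 targets were -0.18 at 24 h and -0.34 at 7 days, beside -0.02 and 0.02 for all genes. None of 12 other arterial genes was regulated against sham at either time, with medians of 0 and 0.01. Between the hemispheres of stroke mice 1 of the 12 was higher and 1 lower at 24 h, beside 8.52% and 5.14% of all genes. At 7 days 1 was higher and 0 lower there, beside 13.0% of all genes regulated in either direction.

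Of 7 other venous genes 2 were higher against sham at 24 h and 3 at 7 days, beside 10.0% and 3.27% of all genes, none was lower, and the sign was positive for 7 of 7 at either time (medians 0.23 and 0.58). Between the hemispheres of stroke mice 1 of the 7 was higher at 24 h (median 0.11) and 2 at 7 days (median 0.58). Beside this, 8.52% of all genes were higher at 24 h and 13.0% regulated in either direction at 7 days. Ackr1, a chemokine-binding receptor of venules, had 10655, 13195 and 11323 normalized counts in stroke ipsilateral libraries at 24 h and 554, 1862 and 1397 in sham libraries, a log2 fold change of 3.37 (SE 0.87, limma adjusted p = 0.00667). Ipsilateral Ackr1 libraries at 7 days spread from 4740 to 20573 after stroke and from 437 to 4342 after sham surgery (2.68, SE 0.87, adjusted p = 0.0377). The contralateral ones at 7 days held 9041, 9925 and 2463 after stroke and 1333, 323 and 3128 after sham surgery. Emcn, a sialomucin of venous and capillary endothelium, was higher against sham at 24 h (0.85, SE 0.18, adjusted p = 0.00182). Its stroke libraries at 24 h held 8295, 10281 and 6430 on the ipsilateral side and 5843, 5765 and 5587 on the contralateral side. Vwf, the platelet-binding protein von Willebrand factor, was higher at 7 days, with 97222, 63555 and 84995 against 39844, 32851 and 28592 (1.27, SE 0.18, adjusted p = 5.37e-05). Its contralateral libraries at 7 days held 42952, 52254 and 48500 after stroke and 31720, 31859 and 28898 after sham surgery, also without overlap. Stroke against sham on the contralateral side called 0 of these 7 venous genes at 7 days. The sham ipsilateral level of Vwf itself fell by 0.83 from 24 h to 7 days (SE 0.18, adjusted p = 0.033), from a mean of 59640.7 to one of 33762.3. Aplnr, the apelin receptor, was higher at 7 days (1.62, SE 0.53, adjusted p = 0.0408). Nr2f2, the transcription factor of this programme, did not pass the test at either time. These genes are shown with the pathway lists in the plot of log2 fold changes by role.

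**Figure D4:**
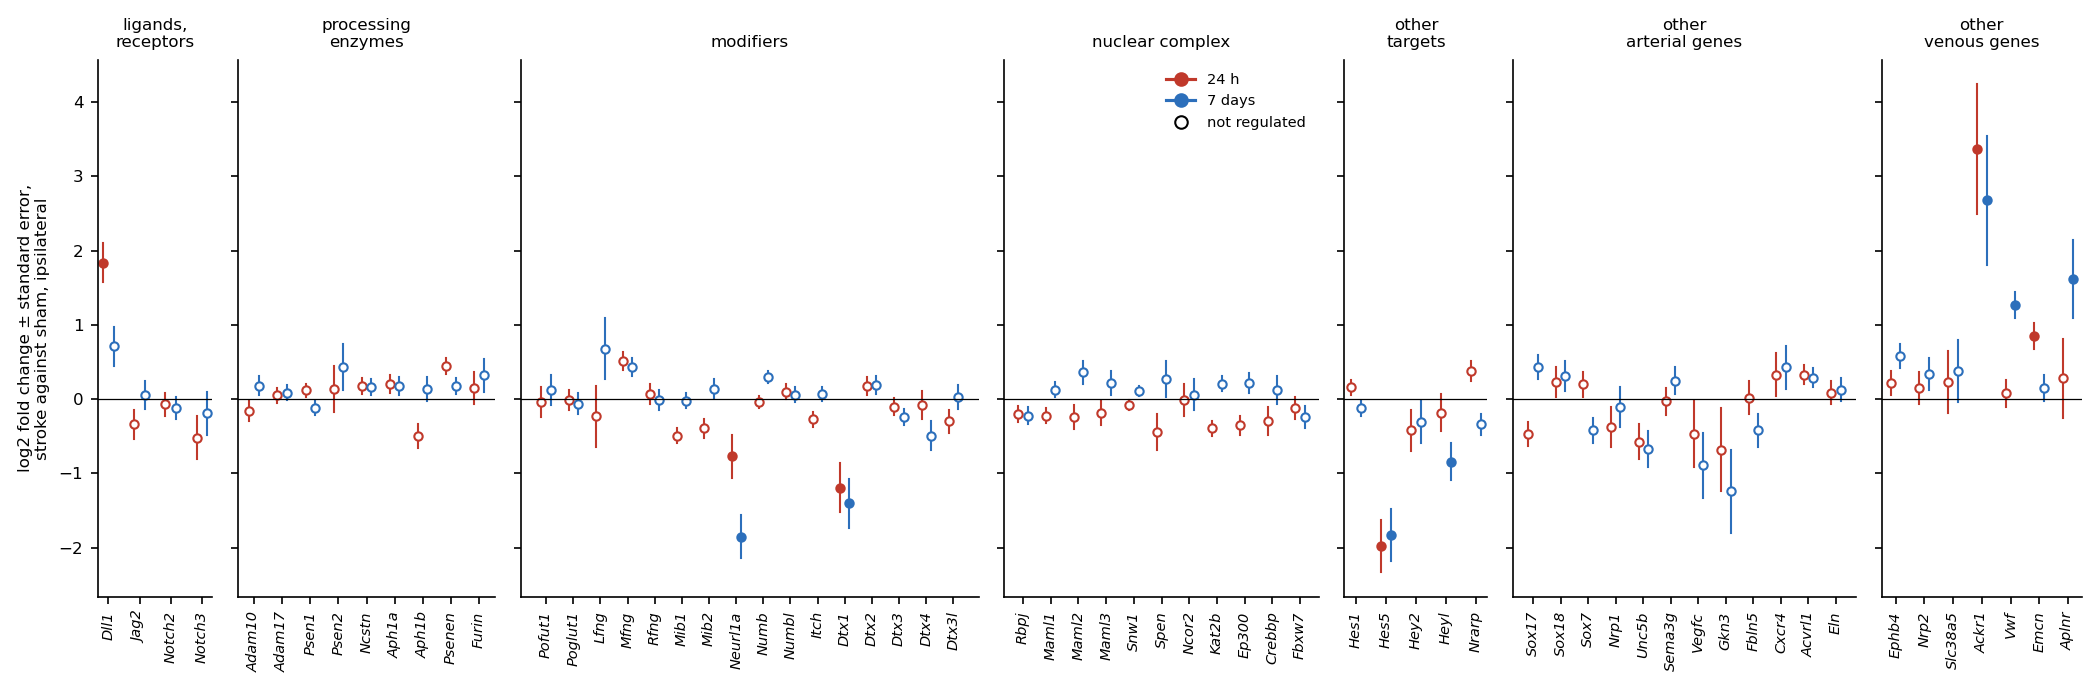
Log2 fold changes of stroke against sham, ipsilateral, with standard errors from limma (vertical axis), for the tested genes of 7 lists (panels) at 24 h in red and 7 days in blue. Filled points are regulated. Regulated genes were higher among the other venous genes, with Ackr1 at 3.37 at 24 h, and the filled points of 2 modifiers and of the targets, with Hes5 at -1.98, are below 0, whereas the enzymes, nuclear complex and other arterial genes have no filled point.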

How the data were processed

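Microvessel RNA from 24 pools was sequenced as stranded mRNA libraries. Per the labels the reads were aligned to mm10 (GRCm38) with STAR 2.5.2b and counted with featureCounts 1.5.1, and DESeq2 1.6.2 normalized them. The study's methods name other releases of the aligner and the normalizing tool. The authors deposited the normalized counts as whole numbers, a score rather than raw reads, so that sequencing depth is unknown and no count model was fitted. Groups came from the sample titles.

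Values were taken as log2(value + 1) for the 15982 of 17270 genes with a mean above 5 and fitted over all 8 groups with limma 3.58.1 (mean-variance trend, R 4.3.3). All 10 members passed the filter. The code was tested on simulated data. Differences of log2(value + 1) slightly understate changes of low genes, such as Hes5. The p-values measure the spread between pools of 3 hemispheres. Gene models were those of GENCODE for the same build, and promoters those of RefSeq. The members and lists were chosen with earlier results of these data known. Named genes were the members, up to 2 regulated genes in each direction at the ends of each list, and the 3 genes closest to each member; Vwf in the comparison at 7 days was named after its values were seen. Alternatives were other pseudocounts, filters, scalings, a length and GC correction, replicate blocks, fits on the compared groups alone, no fold limit and each replicate left out. In sham mice, same-numbered hemispheres deviated together, with r from 0.15 to 0.47 in all 6 pairs, and the titles alone give these numbers.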

Additional observations from a re-analysis of the deposited data

Results flagged for a closer look

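The ipsilateral stroke effect differed between 24 h and 7 days by the interaction test for 6 genes of the member, Notch, arterial and venous lists. Beside the 10 members these lists held 4, 9, 16, 11, 5, 12 and 7 tested genes. Among all genes tested 2.43% were called higher and 5.68% lower, so that the share in the lists was near that of all genes. The difference, 7 days minus 24 h on the log2 scale by limma, was -2.03 for Gja5 (SE 0.23, adjusted p = 3.71e-05) and -0.90 for Dll4 (SE 0.27, adjusted p = 0.0386), whose call was lost in 10 of 22 alternatives, the replicate block among them (adjusted p = 0.0504). It was -0.72 for Nrarp, a Notch feedback inhibitor (SE 0.20, adjusted p = 0.0262), 0.60 for Kat2b, an acetyltransferase of the nuclear complex (SE 0.14, adjusted p = 0.0108), 0.90 for the arterial transcription factor Sox17 (SE 0.23, adjusted p = 0.0189) and 1.19 for Vwf (SE 0.25, adjusted p = 0.00544). The sham ipsilateral mean of Vwf went from 59640.7 at 24 h to 33762.3 at 7 days and the stroke ipsilateral mean from 63375.0 to 81924.0. Sox17 had log2 fold changes against sham of -0.47 at 24 h and 0.43 at 7 days, Nrarp of 0.38 and -0.34 and Kat2b of -0.39 and 0.21, each within the limit on the fold change at both times.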

How the results depend on the processing

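The counts of regulated members were recomputed in 114 other settings and 72 fits without 1 library. They were within 1.5 times the main count in 106 and 63 of these, and no call of a member changed sign. For the interaction the count was 1 instead of 2 with median centring, with the length and GC correction and with the replicate block, since Dll4 was lost (adjusted p = 0.0575, 0.0547 and 0.0504). For stroke ipsilateral against contralateral at 24 h it was 1 with endothelial centring and 1 with the smooth muscle covariate, since Hey1 was lost, and 4 with no limit on the fold change. With the length and GC correction it was 1 at 7 days against sham (Notch4 in place of Gja5 and Dll4) and 1 against the contralateral side (Notch4). The cause was not tested. Without 1 library the counts were 2 to 2 against sham at 24 h, 1 to 2 at 7 days, 1 to 3 against the contralateral side at 24 h, 2 to 3 for 7 days against 24 h and 1 to 2 for the interaction. Endothelial centring moved the median of all genes by up to -0.24 and the length and GC correction by up to 0.12, and 3 of 20 stroke fold changes of members turned sign under each, none of them called. Replicate numbers of stroke hemispheres did not deviate together in every pair (r from 0.06 to 0.36), and those of stroke and sham pools had r from -0.25 to 0.15. The replicate block by number changed no other call of a member, and the block by pool of same-numbered hemispheres kept 2 members at 24 h and 0 in the other 3 hemisphere comparisons. Groups of 3 limit these values to large effects, and depth is unknown.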
